A study of Mus musculus with 1 sample.

Results

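The genes described here encode the Fc receptors and phagocytosis signals of a mouse tumor: the Fc gamma receptors Fcgr1, Fcgr2b, Fcgr3 and Fcgr4, the adaptor chains Fcer1g and Tyrobp, the receptor kinases Mertk and Axl, and the pair Sirpa and Cd47. They were chosen by name, and all 10 were found among the 32285 genes of the deposited count table. Their UMI counts (unique molecular identifiers, each standing for 1 captured RNA molecule) were compared across macrophage states, monocytes, NK and T cells, tumor cells and fibroblasts. MC38, a colon adenocarcinoma line of C57BL/6 origin, had been injected under the skin of female C57BL/6J mice aged 4 to 6 weeks, and 5 tumors were pooled in equal proportion into 1 droplet library. The library is labelled WT. It was taken as the control pool, whose MC38 cells carried a non-targeting short hairpin RNA, since 2 pools are described in the methods, and the pool with the knockdown was not analysed here. With 1 pool there were no replicates, so the spread between mice is unknown and no test was made.

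Fc gamma receptors bind the constant part of IgG and let a phagocyte take up antibody-coated targets. The activating receptors signal through an immunoreceptor tyrosine-based activation motif on the shared gamma chain encoded by Fcer1g, whereas Fcgr2b carries an inhibitory motif of its own. Tyrobp encodes DAP12, an adaptor of the same kind that serves Trem2 and NK cell receptors. Mertk and Axl belong to a kinase family that recognises phosphatidylserine on dying cells through the bridging ligands Gas6 and Pros1. They drive efferocytosis, the uptake of dying cells. Cd47 on a target engages Sirpa on the phagocyte, whose cytoplasmic tail then restrains engulfment.

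After filtering, 4443 cells (83.7% of the barcodes in the file) remained, with 94367664 UMIs in all and a median of 10401 UMIs (range 511 to 231902), and 3654 of them (82.2%) fell into 15 groups named by marker genes, of which 14 are described. The largest set, 1828 cells high in Shisal2b and Rhox5, is called Rhox5-high cells below. Its Rhox5 level was 693 [687 to 699] CPM (UMIs of a gene per 1000000 UMIs of the group), against 40.4 [37.1 to 43.9] in macrophage-like cells. These cells were taken to stand for the tumor line, but no cell carried a tag, so which of them are MC38 cells was not tested. Macrophage-like cells numbered 1337 and included Cxcl9-high (540 cells), proliferating (235) and Retnla-high (24) cells. Their remaining cells are not described as a group of their own but are counted in all values for macrophage-like cells. The other groups were monocyte-like (239), dendritic-like (43), granulocyte-like (46), NK-like (23), Cd8a-high T-like (51), Foxp3-high T-like (36), fibroblast-like (32) and pericyte-like (19) cells. Monocyte-like cells were also rich in macrophage markers. Their 9 macrophage marker genes summed to 31946 CPM (0 at 0), near the 33845.5 of proliferating macrophages. The monocyte list summed to 3510 CPM in monocyte-like cells, against 605 in proliferating and 715 in Cxcl9-high macrophages. Rhox5-high cells comprised an H19-high set (871), a proliferating set (844) and a Malat1-high set (113).

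Depth differed between groups. The median was 9400 UMIs per cell in macrophage-like cells, 5708 in monocyte-like cells, 6028 in NK-like cells, 5158 in T-like cells, 7303 in fibroblast-like cells and 38310 in Rhox5-high cells. Granulocyte-like cells were shallow, with a median of 712. Levels are therefore given in CPM, with exact 95% Poisson intervals in square brackets. Shares of cells with a UMI carry exact Clopper-Pearson intervals, except that a share of 0 is given the limit of 3 counts, which bounds the cells with a UMI and not the cells that express the gene, and ratios carry exact conditional intervals. All intervals cover counting error only. UMIs counted at the 3-prime end of a transcript do not scale with its length, so levels of different genes are set side by side without a length correction.

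**Figure D1:**
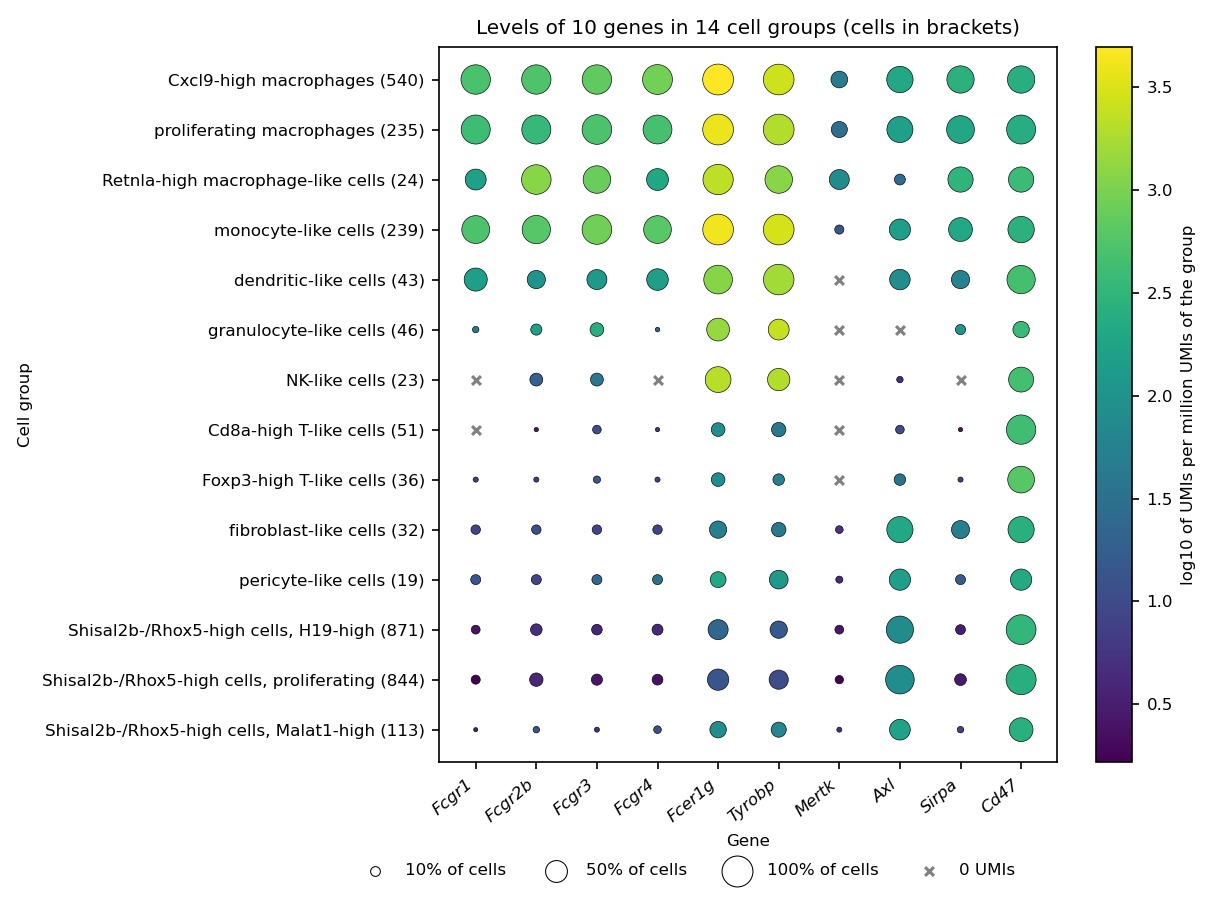
Level and share of cells with a UMI for the 10 genes in the 14 cell groups. Colour gives the log10 of CPM, the area of a dot gives the share of cells with at least 1 UMI (not corrected for depth), a cross marks 0 UMIs, and the number of cells stands in brackets. The Fc gamma receptor genes were high in macrophage-like and monocyte-like cells, Fcer1g and Tyrobp also in NK-like cells, and Cd47 in every group.

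In the GENCODE M21 annotation of GRCm38, 4 of the 10 genes lie within 276 kb of chromosome 1. Fcgr2b (chr1:170958617-170976547, minus strand) is followed by Fcgr4 (chr1:171018920-171029761, plus strand) after 42.4 kb, by Fcgr3 (chr1:171051174-171064935, minus strand) after a further 21.4 kb, and by Fcer1g (chr1:171229572-171234365, minus strand) after another 165 kb. Fcgr1 stands apart on chromosome 3 (chr3:96282909-96293969, minus strand). Tyrobp (chr7:30413760-30417585, plus strand) and Axl (chr7:25757273-25788705, minus strand) are on chromosome 7, Mertk (chr2:128698956-128802894, plus strand) and Sirpa (chr2:129592835-129632228, plus strand) on chromosome 2, and Cd47 (chr16:49800533-49915010, plus strand) on chromosome 16. Because Fcgr2b, Fcgr3 and Fcgr4 are close paralogs, a read could have been given to the wrong one, and the deposited counts cannot show how often. In the deposited table the 10 genes carry the identifiers ENSMUSG00000015947 (Fcgr1), ENSMUSG00000026656 (Fcgr2b), ENSMUSG00000059498 (Fcgr3), ENSMUSG00000059089 (Fcgr4), ENSMUSG00000058715 (Fcer1g), ENSMUSG00000030579 (Tyrobp), ENSMUSG00000014361 (Mertk), ENSMUSG00000002602 (Axl), ENSMUSG00000037902 (Sirpa), ENSMUSG00000055447 (Cd47). In the kept cells the genes had from 761 UMIs (Mertk) to 71931 UMIs (Fcer1g). Fcgr1 had 6800, Fcgr2b 8948, Fcgr3 11365, Fcgr4 10029, Tyrobp 41560, Axl 8961, Sirpa 4215 and Cd47 26218.

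The activating receptor genes were myeloid and differed among the myeloid states. Fcgr4, which encodes a receptor for IgG2a and IgG2b, was highest of the 14 groups in Cxcl9-high macrophages, at 910.2 [883 to 938] CPM. Monocyte-like cells followed at 628 [591 to 667], then proliferating macrophages at 463 [439 to 487], each without overlap. Retnla-high cells stood lower at 193 [129 to 277], next to dendritic-like cells at 144 [109 to 187].

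Fcgr1, the high-affinity receptor, had its top levels in monocyte-like cells (508 [474 to 543] CPM) and Cxcl9-high macrophages (499.7 [479.7 to 520.2]), whose intervals overlapped. Proliferating macrophages (396 [375 to 419]) came next without overlap. Retnla-high (153 [97.0 to 229]) and dendritic-like cells (149 [113 to 192]) could not be told apart. Within the Cxcl9-high group, a cluster led by Ifit3, Ifit2 and Ifit3b (150 cells) had 718 [667 to 772] CPM of Fcgr1, against 439.6 [419 to 461] in the cluster led by Tmem176a and Dnase1l3 (390 cells). Their Fcgr4 levels, 887 [830.0 to 946] and 917 [886 to 948], overlapped.

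Fcgr3, the low-affinity activating receptor, was highest in monocyte-like cells (873 [829 to 919] CPM), overlapping Retnla-high cells (805 [668 to 961]), which in turn overlapped Cxcl9-high macrophages (694 [670.0 to 718]). The monocyte-like and Cxcl9-high intervals did not overlap. Proliferating macrophages (515 [491 to 541]) were lower without overlap. Granulocyte-like cells had 12 UMIs of Fcgr3 in 46 cells, a level of 261 [135 to 457], and dendritic-like cells 121 [88.6 to 160.3].

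The promoters of the 4 receptor genes are shown, taken from RefSeq on GRCm38.p6 (250 bases before to 50 after the start). Promoter entries were found for 8 of the 10 genes, Fcgr1, Fcgr2b, Fcgr3, Fcgr4, Fcer1g, Mertk, Axl and Cd47, but not Tyrobp and Sirpa. Motifs were searched on both strands: GAAANNGAAA, the form of an interferon-stimulated response element, and GAGGAA, the core bound by the myeloid factor PU.1. Of 32851 promoters in the table, 3.44% held the first and 28.3% the second. The sequences run 5-prime to 3-prime along the gene, with motif matches in capitals: Fcgr1 (chr3:96293920-96294219, minus strand), Fcgr4 (chr1:171018676-171018975, plus strand), Fcgr3 (chr1:171059354-171059653, minus strand, the first of its 2 entries) and Fcgr2b (chr1:170976022-170976321, minus strand).
Fcgr1: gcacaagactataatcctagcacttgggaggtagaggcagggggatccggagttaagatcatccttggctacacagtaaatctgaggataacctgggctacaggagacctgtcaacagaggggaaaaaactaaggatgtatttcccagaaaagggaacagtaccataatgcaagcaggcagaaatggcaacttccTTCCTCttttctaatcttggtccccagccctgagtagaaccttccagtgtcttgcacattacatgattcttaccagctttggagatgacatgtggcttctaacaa
Fcgr4: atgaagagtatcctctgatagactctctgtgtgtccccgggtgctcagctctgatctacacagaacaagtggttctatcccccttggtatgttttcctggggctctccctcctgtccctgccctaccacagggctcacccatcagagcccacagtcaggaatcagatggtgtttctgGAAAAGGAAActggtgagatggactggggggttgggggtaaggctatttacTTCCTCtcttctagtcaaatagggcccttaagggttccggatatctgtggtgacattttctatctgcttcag
Fcgr3: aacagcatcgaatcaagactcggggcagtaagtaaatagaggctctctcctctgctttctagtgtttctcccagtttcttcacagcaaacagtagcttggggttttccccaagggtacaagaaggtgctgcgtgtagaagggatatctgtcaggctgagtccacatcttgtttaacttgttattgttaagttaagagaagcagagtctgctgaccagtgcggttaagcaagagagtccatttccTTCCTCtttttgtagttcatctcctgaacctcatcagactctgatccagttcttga
Fcgr2b: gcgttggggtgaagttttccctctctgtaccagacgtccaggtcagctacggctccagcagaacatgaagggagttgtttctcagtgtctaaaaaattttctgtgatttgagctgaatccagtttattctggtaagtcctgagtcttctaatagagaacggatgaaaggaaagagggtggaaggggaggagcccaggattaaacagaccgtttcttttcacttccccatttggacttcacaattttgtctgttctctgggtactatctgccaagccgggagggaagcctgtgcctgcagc
The Fcgr1 window held TTCCTC, the reverse complement of GAGGAA, 55 bases before the gene start. The Fcgr4 window held GAAAAGGAAA at 73 bases and TTCCTC at 22 bases before the start. Fcgr3 had TTCCTC only, 6 bases before the start, and Fcgr2b had none of these letters. A match describes the sequence and does not show that a factor binds there. Any link between these matches and the levels in the groups was not tested. Among the other 4 genes with an entry, Axl held TTCCTC 130 bases before its start, and Fcer1g, Mertk and Cd47 had no match.

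The inhibitory receptor gene Fcgr2b had a profile of its own. Its level in the 24 Retnla-high cells, 1184 [1016 to 1371] CPM, was above every other group without overlap. Monocyte-like cells (599.8 [563 to 638]), Cxcl9-high (534 [514 to 556]) and proliferating macrophages (357 [336 to 378]) followed, each without overlap. The group holds the macrophage clusters that no other name fitted, so its cells depended on the grouping. That remainder had 240 cells and 572 [534 to 613] CPM of Fcgr2b with a 10% mitochondrial limit, and 69 cells and 482 [434 to 533] with doublets kept, not above every other group without overlap in either. Under the other 4 regroupings it had 24 to 27 cells and 1088 to 1184 CPM, above every other described group without overlap.

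Summing Fcgr1, Fcgr3 and Fcgr4 against Fcgr2b sets activating beside inhibitory transcripts. Macrophage-like cells together had 3.20 [3.12 to 3.29] activating UMIs per Fcgr2b UMI. This value includes the macrophage-like cells not described on their own. Cxcl9-high macrophages had 3.94 [3.77 to 4.11], proliferating macrophages 3.85 [3.61 to 4.12] and monocyte-like cells 3.35 [3.12 to 3.60]. Retnla-high cells had 0.972 [0.784 to 1.205], near parity and below these groups without overlap. Under the 4 regroupings that gave nearly the same number of cells (24 to 27) the ratio was 0.972 to 1.02. In the larger groups given by the 10% mitochondrial limit and by keeping doublets, which had less Retnla, it was 2.56 [2.36 to 2.78] and 1.75 [1.54 to 1.99]. Within the Cxcl9-high group the values were 3.85 [3.66 to 4.04] in the Tmem176a-led and, in the Ifit3-led cluster, 4.28 [3.89 to 4.71]. Dendritic-like cells, with 41 UMIs of Fcgr2b, had 3.93 [2.77 to 5.68]. These ratios compare transcript counts and say nothing of protein on the cell surface.

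**Figure D2:**
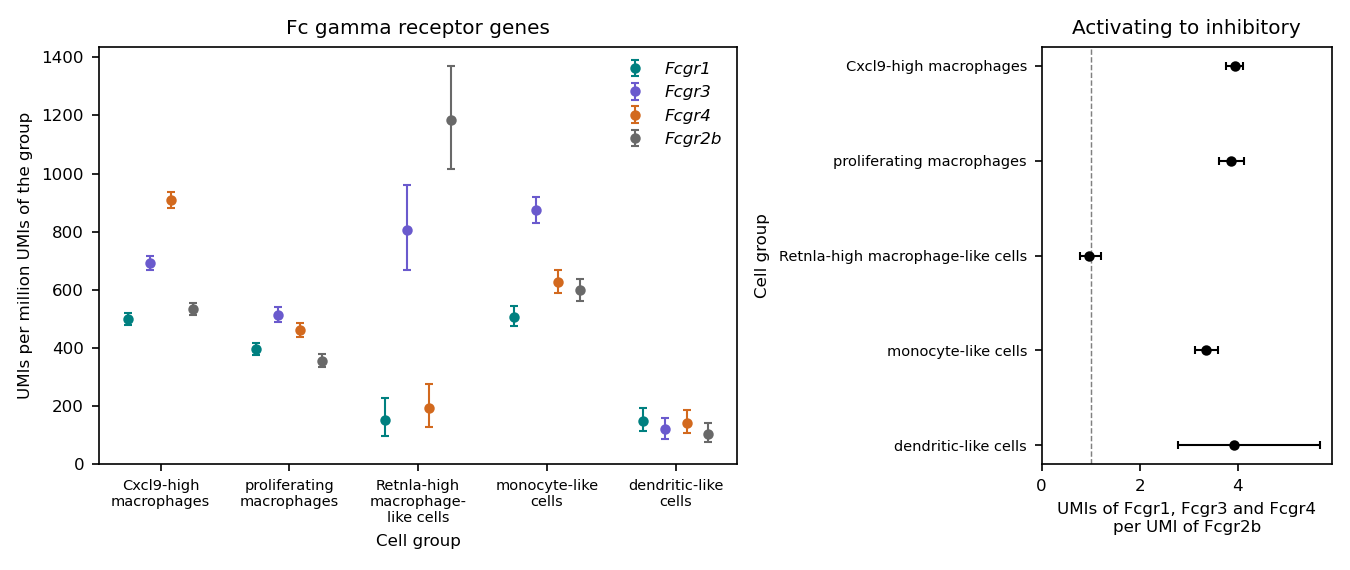
Fc gamma receptor genes in the macrophage states, monocyte-like and dendritic-like cells. Left, levels in CPM with 95% Poisson intervals; right, UMIs of Fcgr1, Fcgr3 and Fcgr4 per UMI of Fcgr2b with 95% conditional intervals, the dashed line marking equal counts. Retnla-high cells sat at 0.972, whereas Cxcl9-high macrophages reached 3.94.

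Outside the myeloid groups, Fc gamma receptor counts were low and were compared with what free macrophage RNA would give. In macrophage-like cells 86.5% [84.5% to 88.3%] had a Fcgr1 UMI, 90.7% [89.0% to 92.2%] a Fcgr2b UMI, 90.8% [89.1% to 92.3%] a Fcgr3 UMI and 88.8% [87.0% to 90.4%] a Fcgr4 UMI. Rhox5-high cells, which should lack these receptors, still showed 7.99% [6.78% to 9.33%], 15.7% [14.1% to 17.5%], 11.8% [10.4% to 13.4%] and 12.04% [10.6% to 13.6%] in the same order, at about 4 times the depth. With each cell thinned to 1000 UMIs the shares for the same genes were 32.7%, 38.5%, 42.6% and 43.8% of macrophage-like cells, against 0.329%, 0.659%, 0.494% and 0.439% of Rhox5-high cells. Free RNA of 1 source keeps its genes in 1 ratio in every cell type, so counts were set against C1qa, a complement gene of macrophages found here in 66.0% [63.8% to 68.2%] of Rhox5-high cells. Per C1qa UMI, Rhox5-high cells had 0.0584 [0.0493 to 0.0688] UMIs of Fcgr1 and macrophage-like cells 0.0525 [0.0511 to 0.0540], with overlapping intervals. Fcgr3 was alike in this, at 0.0924 [0.0807 to 0.105] and 0.0884 [0.0865 to 0.0903]. For Fcgr2b the ratio was higher in Rhox5-high cells, 0.129 [0.115 to 0.145] against 0.0691 [0.0674 to 0.0707], without overlap, and so it was for Fcgr4, 0.0943 [0.0824 to 0.107] against 0.0802 [0.0784 to 0.0820]. The source of these counts was not tested.

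Lymphoid cells had few Fc gamma receptor UMIs. In NK-like cells Fcgr3, the CD16 gene of NK cells, had 8 UMIs in 4 of 23 cells, a level of 37.4 [16.1 to 73.7] CPM, against 12 [4.40 to 26.1] in T-like cells (6 UMIs in 87 cells), and these intervals overlapped. Per C1qa UMI, NK-like cells had 0.421 [0.159 to 1.01] UMIs of Fcgr3, above macrophage-like cells (0.0884 [0.0865 to 0.0903]) without overlap, and T-like cells 0.128 [0.0446 to 0.299], overlapping both. Fcgr1 and Fcgr4 were each seen in 0 of 23 cells, which allows a UMI in up to 13.0% of cells. Among Cd8a-high T-like cells, Fcgr1 was seen in 0 of 51 cells, which allows a UMI in up to 5.88% of cells. Fibroblast-like cells had 3 UMIs of Fcgr1 and 4 of Fcgr2b, beside 17 of C1qa.

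The adaptor genes reached beyond the myeloid groups. Fcer1g was highest in Cxcl9-high macrophages (4962 [4899 to 5026] CPM), followed by monocyte-like cells (4242 [4144 to 4341]) and proliferating macrophages (3869 [3801 to 3939]), each without overlap. Then came Retnla-high (2214 [1983 to 2465]) and NK-like cells (2070.0 [1882 to 2272]), which overlapped. Granulocyte-like (1416 [1093 to 1805]) and dendritic-like cells (1154 [1050.1 to 1266]) also overlapped each other. NK-like cells thus held Fcer1g near the lowest macrophage level, that of the Retnla-high cells, with few UMIs of the Fc gamma receptor genes.

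Tyrobp, the DAP12 gene, led in monocyte-like cells (2953 [2871 to 3036] CPM), ahead of Cxcl9-high macrophages (2724 [2677 to 2771]) without overlap. The Cxcl9-high and granulocyte-like (2462 [2029 to 2959]) intervals overlapped, as did those of proliferating macrophages (1978 [1929.8 to 2028]) and NK-like cells (1963 [1779 to 2159]). Dendritic-like (1629 [1505 to 1761]) and Retnla-high cells (1210.2 [1041 to 1399]) were lower, each without overlap. The balance of the adaptors shifted by cell type. There were 1.82 [1.80 to 1.85] Fcer1g UMIs per Tyrobp UMI in macrophage-like cells, 1.44 [1.39 to 1.49] in monocyte-like cells and 1.05 [0.921 to 1.21] in NK-like cells. Tyrobp exceeded Fcer1g in dendritic-like (0.709 [0.627 to 0.801]) and granulocyte-like cells (0.575 [0.417 to 0.787]). Per activating Fc gamma receptor UMI, macrophage-like cells had 2.60 [2.56 to 2.64] UMIs of Fcer1g, monocyte-like cells 2.11 [2.03 to 2.2] and NK-like cells 55.4 [27.9 to 129], so the adaptor outnumbered its receptor chains in each.

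Between NK-like and T-like cells only 3 of the 10 genes, Fcer1g, Tyrobp and Cd47, had at least 20 UMIs. Among these the adaptors were the clearest difference. Fcer1g was 24.1 [17.6 to 33.7] times as high in NK-like as in T-like cells, and Tyrobp 44.6 [29.1 to 71.9] times. With a 10% mitochondrial limit no NK-like cluster was named, so neither ratio has a value there. At a lower clustering resolution, where the NK-like cluster held 70 cells and the T-like cells numbered 35, all Foxp3-high, with no Cd8a-high cluster named, these ratios were 9.96 and 14.7, and as means of each cell's own level 16.2 and 26.7. A Fcer1g UMI was found in 69.6% [47.1% to 86.8%] of NK-like and 19.5% [11.8% to 29.4%] of T-like cells, and after thinning in 59.1% [36.4% to 79.3%] and 5.75% [1.89% to 12.9%]. Tyrobp was found in 52.2% [30.6% to 73.2%] and 18.4% [10.9% to 28.1%]. The NK-like levels and ratios are thus sums to which only part of the NK-like cells contributed. The T cell marker list summed to 1626 CPM (top gene Trbc1 at 537, 1 of 10 genes at 0) in NK-like cells and 9365 CPM (top gene Cd3g at 2399, 0 of 10 genes at 0) in T-like cells. The NK marker list, which named the group, summed to 5107 CPM (top gene Gzma at 2612, 0 of 10 genes at 0) in NK-like and 978 CPM (top gene Prf1 at 648, 2 of 10 genes at 0) in T-like cells. The part of T cell RNA in the NK-like levels was not tested. Ncr1, a gene of the NK list, reached 350.4 [276 to 439] against 0 UMIs in T-like cells. C1qa was found in 42.5% [32.0% to 53.6%] of T-like cells, a larger share than that of Fcer1g. Per C1qa UMI, NK-like cells had 23.3 [14.8 to 39.1] UMIs of Fcer1g and 22.1 [13.98 to 37.1] of Tyrobp, T-like cells 0.915 [0.591 to 1.41] and 0.468 [0.269 to 0.792], and macrophage-like cells 0.574 [0.568 to 0.580] and 0.315 [0.311 to 0.319]. The NK-like ratios were above both others. The T-like ratio was above the macrophage-like one without overlap for Fcer1g and overlapped it for Tyrobp, and the source of the T-like counts was not tested.

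**Figure D3:**
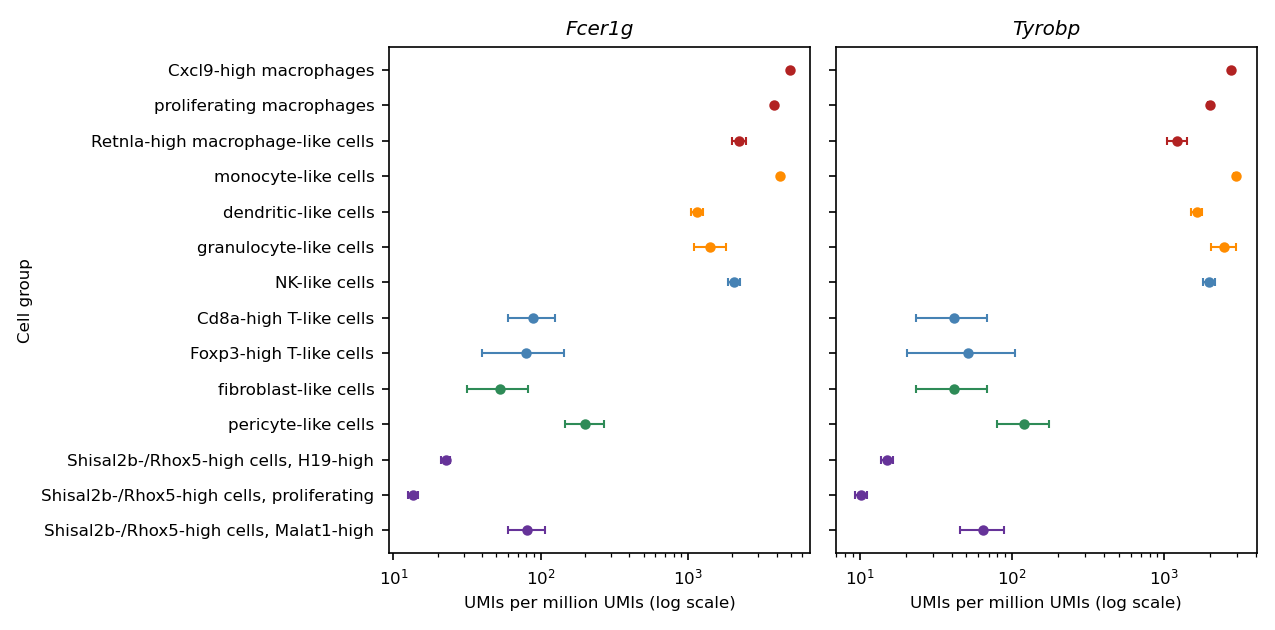
Fcer1g and Tyrobp in the 14 cell groups, in CPM on a log axis with 95% Poisson intervals (red, macrophage states; orange, other myeloid; blue, lymphoid; green, stromal; purple, Rhox5-high cells). NK-like cells sat at 2070.0 and 1963, near the myeloid groups, and T-like cells more than 10-fold below. These are summed levels, and not every NK-like cell had a UMI of either gene.

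Mertk and Axl, the efferocytosis kinases, were distributed differently. Mertk was sparse and macrophage-like: Retnla-high cells had 79.8 [41.2 to 139] CPM from 12 UMIs, overlapping Cxcl9-high macrophages (45.9 [40.04 to 52.5]). Proliferating macrophages (29.4 [23.7 to 36.0]) and then monocyte-like cells (14.2 [9.12 to 21.2]) stood below, each without overlap. The macrophage-like to monocyte-like ratio was 2.83 [1.88 to 4.45], resting on 24 UMIs in monocyte-like cells, and 5.23 [1.38 to 44.2] in cells thinned to 1000 UMIs. Mertk was at 0 in dendritic-like cells (limit 7.70 CPM), NK-like cells (limit 14.02) and T-like cells (limit 6.00). A Mertk UMI appeared in 29.3% [26.9% to 31.8%] of macrophage-like and 7.44% [6.28% to 8.74%] of Rhox5-high cells; thinned, the shares were 4.204% [3.19% to 5.43%] and 0.165% [0.0340% to 0.480%]. Per C1qa UMI, Rhox5-high cells had 0.0607 [0.0514 to 0.0713] UMIs of Mertk against 0.00522 [0.00479 to 0.00567] in macrophage-like cells, a higher ratio, while the level in Rhox5-high cells was 2.09 [1.78 to 2.45] CPM.

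Axl was shared by macrophages, stroma and Rhox5-high cells, and no 2 neighbours in its order of 14 groups were free of overlap. Fibroblast-like cells (203 [159 to 255] CPM) and Cxcl9-high macrophages (201 [189 to 215]) headed it. Malat1-high Rhox5-high cells (164 [133 to 201]), proliferating macrophages (152 [139 to 167]), monocyte-like (142 [125 to 162]) and pericyte-like cells (142 [97.3 to 201]) lay close together. The H19-high (78.4 [75.3 to 81.6]) and proliferating Rhox5-high cells (81.5 [78.9 to 84.2]) were lower, and Retnla-high cells lower still (26.6 [7.25 to 68.1], 4 UMIs). The Malat1-high set was shallower, with medians of 3738 UMIs per cell and 7.24% mitochondrial UMIs. These medians were 32357 and 2.73% in the H19-high set and 53822 and 2.39% in the proliferating set. Because Rhox5-high cells were numerous and deep, they held 68.6% of all Axl UMIs in kept cells, against 25.4% for macrophage-like cells.

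Between groups, the fibroblast-like to Rhox5-high ratio for Axl was 2.50 [1.96 to 3.15]. After thinning, it rested on 3 UMIs in fibroblast-like cells and was 1.21 (0.248 to 3.62), so a difference was not detectable at that depth. Lymphoid cells, which should lack Axl, showed a UMI in 10.3% [4.84% to 18.7%] of T-like cells and 5.75% [1.89% to 12.9%] after thinning, against 79.3% [77.3% to 81.1%] and 7.57% [6.40% to 8.89%] in Rhox5-high cells. The thinned shares overlap, so at 1000 UMIs a cell Axl in Rhox5-high cells was not told apart from background. The summed levels, 18 [8.23 to 34.2] and 80.9 [78.9 to 83.0] CPM, did not overlap. Per C1qa UMI, Rhox5-high cells had 2.35 [2.24 to 2.46] UMIs of Axl and T-like cells 0.191 [0.0825 to 0.395]. Macrophage-like cells had 0.0217 [0.0208 to 0.0226], and none of these intervals overlapped. The source of the T-like counts was not tested. The balance of the 2 kinases differed between groups. There were 10 [6.56 to 15.9] Axl UMIs per Mertk UMI in monocyte-like cells, 4.39 [3.78 to 5.10] in Cxcl9-high macrophages and 0.333 [0.0784 to 1.10] in Retnla-high cells, the last from 4 and 12 UMIs and with an interval that includes 1.

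The bridging ligands differed among the macrophage states. Gas6 was highest in the same Retnla-high cells (1011 [856 to 1185] CPM), next in fibroblast-like cells (313 [258 to 377]), and low in Cxcl9-high macrophages (22.8 [18.7 to 27.5]). Pros1 was at 113 [65.9 to 181] in Retnla-high and 83.2 [56.2 to 119] in fibroblast-like cells, with overlapping intervals. In macrophage-like cells together it was at 7.50 [6.11 to 9.10]. Rhox5-high cells had 0.263 [0.161 to 0.407] of Gas6 and 4.66 [4.19 to 5.17] of Pros1. Tyro3, the third kinase of the family, was instead higher in Rhox5-high cells, at 11.3 [10.6 to 12.1] against 1.32 [0.784 to 2.09] in macrophage-like cells. Mfge8, another bridging protein, was highest in pericyte-like cells (592 [495 to 701]).

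Sirpa, the receptor for Cd47, was highest in myeloid groups. Retnla-high cells (306 [224 to 408] CPM) and Cxcl9-high macrophages (272 [257 to 287]) overlapped. Monocyte-like cells (198 [177 to 221]) and proliferating macrophages (195 [179.6 to 211]) lay below them, and this was the only step in the order of 14 groups without overlap. Macrophage-like cells had 80.6 [70.7 to 92.3] times the level of Rhox5-high cells (3.13 [2.75 to 3.56]). The ratio was 48.9 as the mean of each cell's own level and 49.0 in thinned cells. Fibroblast-like cells held 49.9 [29.6 to 78.9] from 18 UMIs, 15.9 [9.28 to 25.7] times the Rhox5-high level. Per C1qa UMI they had 1.06 [0.515 to 2.19] against 0.0327 [0.0316 to 0.0339] in macrophage-like cells. In Rhox5-high cells the ratio to C1qa was 0.0909 [0.0792 to 0.104], also above the macrophage-like value without overlap. A Sirpa UMI was seen in 79.0% [76.7% to 81.1%] of macrophage-like, 34.4% [18.6% to 53.2%] of fibroblast-like and 2.30% [0.280% to 8.06%] of T-like cells. Thinned, the shares were 22.4% [20.2% to 24.8%] and 10% [2.11% to 26.5%], and for T-like cells 0 of 87 cells, which allows a UMI in up to 3.45% of cells at that depth.

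Cd47, the don't-eat-me signal, was present in every group, within a range of 213 CPM in pericyte-like cells to 603 in Foxp3-high T-like cells. The upper end was lymphoid and dendritic: Foxp3-high T-like (603 [481 to 748]), dendritic-like (457 [392 to 529]), NK-like (453 [368 to 553]) and Cd8a-high T-like cells (422 [358 to 495]) formed a run of overlapping neighbours. H19-high Rhox5-high cells (322 [316 to 329]) stood above monocyte-like cells (273 [249 to 299.6]), the only step in the order without overlap. Cxcl9-high (260.5 [246 to 275]) and proliferating macrophages (241 [224 to 258]) were toward the bottom. Proliferating Rhox5-high cells (257 [253 to 262]) were below the H19-high set without overlap.

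Rhox5-high cells therefore had Cd47 at 1.18 [1.14 to 1.22] times the macrophage-like level, a small excess that shrank to 1.11 (0.967 to 1.28) in thinned cells. NK-like and T-like cells did not differ beyond counting error, with a ratio of 0.960 [0.750 to 1.22], nor did fibroblast-like and Rhox5-high cells, with 0.951 [0.771 to 1.16]. A Cd47 UMI was found in 91.6% [90.2% to 92.8%] of Rhox5-high and 78.9% [76.6% to 81.1%] of macrophage-like cells, but after thinning in 23.8% [21.9% to 25.8%] and 21.8% [19.7% to 24.2%], where the intervals overlap. T-like cells had the larger thinned share, 43.7% [33.1% to 54.7%]. No group of these cells lacks Cd47, so its background share could not be read. Ligand and receptor transcripts were nearest to balance in macrophages. There were 0.957 [0.885 to 1.04] Cd47 UMIs per Sirpa UMI in Cxcl9-high macrophages, 1.38 [1.196 to 1.59] in monocyte-like, 8.09 [5.18 to 13.2] in dendritic-like and 90.3 [79.4 to 103] in Rhox5-high cells.

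**Figure D4:**
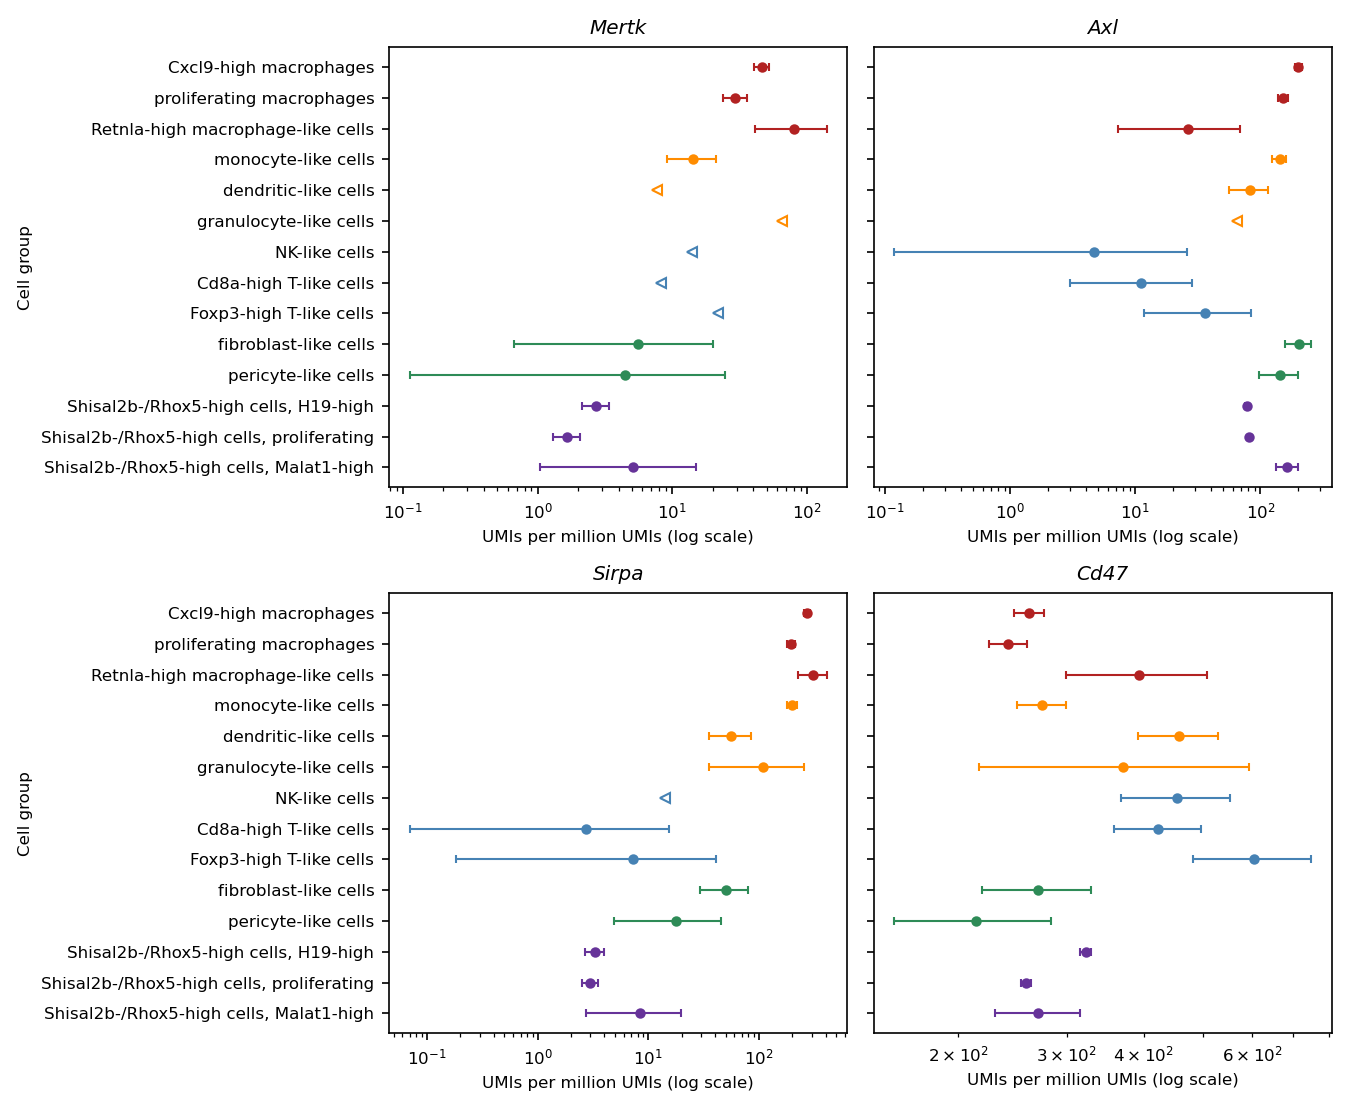
Mertk, Axl, Sirpa and Cd47 in the 14 cell groups, in CPM on log axes with 95% Poisson intervals; colours as for the adaptor plot. Open triangles mark groups at 0 UMIs, drawn at the limit of 3 counts. Mertk and Sirpa were concentrated in macrophage-like cells, Axl also in fibroblast-like and Rhox5-high cells, and Cd47 varied within 213 to 603.

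Set against all genes, the 10 genes set macrophage-like apart from Rhox5-high cells more than from monocyte-like cells. A gene counted as higher or lower when its levels in 2 groups differed at least 2-fold with at least 20 UMIs in the groups together. Between macrophage-like and Rhox5-high cells, 9 of the 10 genes were higher, all but Cd47, and 0 lower, where 21.1% of 13653 genes were higher and 27.2% lower. Their median log2 ratio was 7.24, against -0.24 over all genes tested. The top ratio was 251 [237 to 265] for Fcer1g and the lowest among the 9 was 2.07 [1.97 to 2.17] for Axl. Between macrophage-like and monocyte-like cells 1 of 10 was higher, Mertk, and 0 lower, beside 11.6% and 1.9% of 11218 genes. The monocyte-like group was itself rich in macrophage markers, with a macrophage list sum of 31946 CPM. Its part of macrophage cells or RNA was not tested.

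In the smaller groups fewer genes could be counted. NK-like against T-like cells left 3 of the 10 with 20 UMIs, of which Fcer1g and Tyrobp were higher and Cd47 neither; of 4124 genes, 4.32% were higher and 15.9% lower. Fibroblast-like against Rhox5-high cells put 9 of 10 higher and 0 lower, beside 22.7% and 11.4% of 13004 genes. For 5 of these, Fcgr1, Fcgr2b, Fcgr3, Fcgr4 and Mertk, the fibroblast-like count was 4 UMIs or fewer and the interval of the ratio included 1. For Fcer1g the ratio was 2.98 [1.79 to 4.67] and for Tyrobp 3.33 [1.85 to 5.51], while C1qa, a macrophage gene, had 1.37 [0.795 to 2.19]; the part of macrophage RNA in them was not tested.

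**Figure D5:**
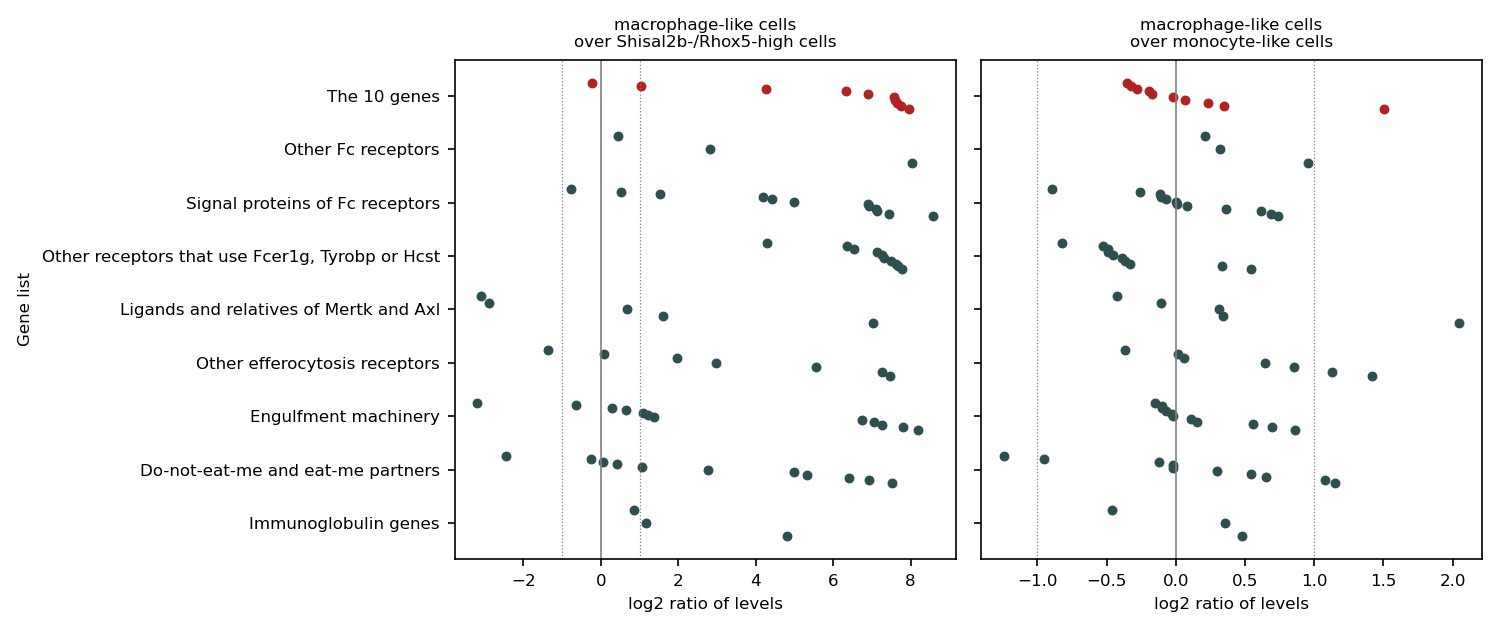
Log2 ratio of levels between macrophage-like and Rhox5-high cells (left) and between macrophage-like and monocyte-like cells (right), each point a gene with at least 20 UMIs in the 2 groups together. Red, the 10 genes; dark, the 8 pathway lists; dotted lines, 2-fold. The median of the 10 genes was 7.24 on the left and -0.09 on the right.

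The partners of these genes were followed through 8 lists of pathway genes. Of the signal proteins of Fc receptors, kinases and phosphatases such as Syk, Lyn and Inpp5d, 10 of 12 measured were higher in macrophage-like than in Rhox5-high cells and 0 lower, beside 21.1% and 27.2% of all genes, the exceptions being the widely used phosphatase Ptpn11 and the adaptor Dok1. Syk was at 64.1 [59.9 to 68.5] CPM in macrophage-like and 18.7 [5.09 to 47.9] in NK-like cells. Ptpn6, which encodes SHP-1, a phosphatase that acts downstream of Sirpa, was at 259 [250.2 to 267] in macrophage-like and 229 [182 to 284] in Cd8a-high T-like cells.

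Among other receptors that pair with Fcer1g, Tyrobp or Hcst, all 10 of 10 measured were higher in macrophage-like than in Rhox5-high cells, beside 21.1% of all genes. Trem2, a lipid receptor that signals through DAP12, was at 588 [566 to 609.8] CPM in Cxcl9-high macrophages and at 20.5 [8.86 to 40.4] in dendritic-like cells. Granulocyte-like cells had the top level of Clec4e, a C-type lectin that signals through Fcer1g, 457 [283 to 699]. Hcst, which encodes DAP10, was highest in Cd8a-high T-like cells (549 [476 to 631]), above NK-like cells (229 [169 to 303]), where Tyrobp and Fcer1g ran the opposite way.

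Most of the remaining Fc receptor genes were nearly absent, 7 of 10 having 22 UMIs or fewer in the kept cells, and Fcamr having 0. Fcgrt, the neonatal Fc receptor that recycles IgG, was concentrated in Retnla-high cells (1224 [1053 to 1414] CPM), far above fibroblast-like cells (149.8 [113 to 195]) and Cxcl9-high macrophages (87.7 [79.4 to 96.5]). Trim21, a cytosolic Fc receptor, was at 17.5 [13.9 to 21.7] in Cxcl9-high macrophages. Of the immunoglobulin genes, which encode the ligands of the receptors, macrophage-like cells had 3.46 [2.54 to 4.60] CPM of Ighg2b and 4.56 [3.49 to 5.84] of Igkc, and 3 of 8 could be compared with Rhox5-high cells. Ighm was at 90.4 [82.1 to 99.4] in Cxcl9-high macrophages.

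Among other efferocytosis receptors, 5 of 7 measured were higher in macrophage-like than in Rhox5-high cells and 1, Scarb1, lower, beside 21.1% and 27.2% of all genes. Stab1, a scavenger receptor that binds phosphatidylserine, was highest in Retnla-high cells (698 [571 to 845] CPM), against 199.8 [187 to 213] in Cxcl9-high macrophages and 86.6 [73.1 to 102] in monocyte-like cells. Timd4, a phosphatidylserine receptor of some resident macrophages, had 14 UMIs in all kept cells. Lrp1 was highest in fibroblast-like cells (746 [659.7 to 841]).

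Of the genes of the engulfment machinery, 8 of 12 were higher in macrophage-like than in Rhox5-high cells and 1 lower, beside the same 21.1% and 27.2% of all genes. The genes higher were Elmo1, Dock2, Rac2, Wasf2, Was, Arpc2, Lamp1 and Cybb. Rac2 was at 245 [237 to 254] CPM in macrophage-like cells and 1172 [1079 to 1271] in T-like cells but 1.59 [1.32 to 1.90] in Rhox5-high cells, and Rac1 was at 374 [364 to 385] in macrophage-like and 309 [305 to 313] in Rhox5-high cells. Cybb, the catalytic chain of the phagocyte oxidase, was at 457 [438 to 477] in Cxcl9-high macrophages.

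Of the partners that hold back or invite uptake, 7 of 11 were higher in macrophage-like than in Rhox5-high cells and 1, Siglecg, lower, beside 21.1% and 27.2% of all genes. Pirb, an inhibitory receptor for MHC class I, was highest in Retnla-high cells (392 [299 to 506] CPM) and at 106 [101 to 112] in macrophage-like cells together. Its ligand subunit B2m was at 5752 [5712 to 5793] in macrophage-like and 2777 [2765 to 2788] in Rhox5-high cells. Calr, whose product invites uptake when exposed on the surface, was nearly even, 987 [971 to 1004] against 953 [946 to 960.0]. Thbs1, a secreted ligand of Cd47, was highest in fibroblast-like cells (702 [618 to 794]). Cd24a, ligand of the inhibitory receptor Siglecg, was highest in dendritic-like cells (82.1 [56.1 to 116]). Qpctl, the enzyme that modifies Cd47 so that Sirpa can bind, was at 6.91 [5.58 to 8.46] in macrophage-like and 5.22 [4.71 to 5.76] in Rhox5-high cells.

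The lists differed less between macrophage-like and monocyte-like cells, where 11.6% of all genes were higher and 1.9% lower. None of the measured other Fc receptors (3), signal proteins (12), other adaptor-using receptors (10) or engulfment genes (11) passed 2-fold there. The ligands and relatives of Mertk and Axl had 1 higher (Gas6) and 0 lower of 5, other efferocytosis receptors 2 higher (Stab1 and Cd36) and 0 lower of 7, and the do-not-eat-me and eat-me partners 2 higher (Cd274 and Xkr8) and 1 lower (Thbs1) of 10. The Gas6 ratio was 4.13 [2.44 to 7.62] and the Stab1 ratio 2.19 [1.85 to 2.61], so both lay on the side of Mertk. In the ligand list, macrophage-like against Rhox5-high cells had 2 higher (Gas6 and Lgals3) and 2 lower (Tyro3 and Mfge8) of 5, beside 21.1% and 27.2% of all genes.

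NK-like and T-like cells left few list genes with 20 UMIs, and of all genes 4.32% were higher and 15.9% lower there. Signal proteins had 0 higher and 1 lower (Pik3cd) of 6, other adaptor-using receptors 1 higher (Ncr1) and 1 lower (Hcst) of 4, where Ncr1 is in the marker list that named the NK-like cells, engulfment genes 0 higher and 1 lower (Rab7) of 9 and the do-not-eat-me and eat-me partners 0 higher and 2 lower (Lilrb4a and Pdcd1) of 6. Other efferocytosis receptors had 1 higher (Itgb3) and 1 lower (Itgav) of 2. Fibroblast-like against Rhox5-high cells had 7 higher and 1 lower (Plcg2) of 11 signal proteins, 3 higher (Itgb5, Lrp1 and Msr1) and 1 lower (Scarb1) of 6 other efferocytosis receptors and 4 higher (Elmo1, Rac2, Was and Cybb) and 0 lower of 12 engulfment genes, beside 22.7% higher and 11.4% lower of all genes. Macrophage markers were present at low levels in both small groups. The 9 macrophage marker genes summed to 556 CPM in NK-like cells, with Apoe highest at 350.4 and 2 at 0, and to 652 CPM in fibroblast-like cells, with Apoe at 444 and 0 at 0. In macrophage-like cells they summed to 49437. The part of macrophage RNA in the differences of these lists was not tested.

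The 24 Retnla-high cells of the main grouping had the highest level of the 14 groups for Fcgr2b, Mertk and Sirpa among the 10 genes, and for Gas6, Pros1, Stab1, Pirb and Fcgrt among their partners. Fcgr1, Fcgr4 and Axl were lower there than in Cxcl9-high and proliferating macrophages. The leading genes of the cluster were Retnla, Cbr2, Lyve1 and Folr2, of which Lyve1 and Folr2 are known from resident perivascular macrophages, and C1qa was at 7009 [6592 to 7445] CPM. These cells contributed 1.99% of all Fcgr2b UMIs in kept cells and 1.58% of Mertk UMIs. After thinning, a Fcgr2b UMI was found in 62.5% [40.6% to 81.2%] of them, against 41.4% [37.3% to 45.7%] in Cxcl9-high macrophages; these intervals overlap. The larger groups given by the 10% mitochondrial limit and by keeping doublets had less Retnla, 454 [419.5 to 490.1] and 837 [774 to 903] CPM, against 4316 [3990.0 to 4661]. With doublets kept, the levels of Mertk (28.2 [17.7 to 42.7]), Sirpa (182 [153 to 214]) and Fcgr2b in the larger group were not the highest. The partner genes were not recomputed under these settings.

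By Pearson correlation of log2 levels over the 15 groups, among 11925 genes with at least 100 UMIs, the genes with the most similar patterns were other myeloid genes for most of the 10. Up to 3 are given for each. They were Cebpa (r = 0.98), Aif1 (r = 0.97), Fcgr4 (r = 0.97) for Fcgr1, Adgre1 (r = 0.97), Cd68 (r = 0.97), Fcgr3 (r = 0.97) for Fcgr2b, Ms4a6c (r = 0.97), Fcgr2b (r = 0.97) for Fcgr3 and Fcgr1 (r = 0.97), Csf1r (r = 0.97), C1qc (r = 0.96) for Fcgr4. Fcer1g and Tyrobp were nearest to each other, with Tyrobp (r = 0.99), Fcgr3 (r = 0.95), AB124611 (r = 0.94) for the former and Fcer1g (r = 0.99), Fgr (r = 0.94), AB124611 (r = 0.94) for the latter. Mertk had Itga9 (r = 0.96), Lamp1 (r = 0.95), Hexa (r = 0.94), Sirpa Lgmn (r = 0.97), Csf1r (r = 0.97), Cebpa (r = 0.97) and Axl Phf11d (r = 0.92), Lztfl1 (r = 0.92), Agpat1 (r = 0.91). Cd47 had the weakest matches, Pglyrp1 (r = 0.81), Otulin (r = 0.81). The groups come from 1 library and differ in depth and in number of cells, so these values are descriptive.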

How the data were processed

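The authors' deposited file held UMI count values per gene and cell. The software in its header is Cell Ranger 5.0.1, while version 3 stands in the methods. The chemistry was 10x 3.1. Cells with under 200 genes (0) or over 20% mitochondrial UMIs (667) were left out, as were 197 cells with the highest doublet scores from simulated pairs, at 0.8% per 1000 cells. Counts were scaled to 10000 per cell and logged. Then 2000 variable genes (1000 in subsets), 30 components (15 in subsets) and 20 neighbours went into Leiden clustering at resolution 0.5, with myeloid cells reclustered at 0.8 and lymphoid, stromal and mixed cells at 1. The 10 genes and their lists were kept out of the variable genes. Python 3.11.15, numpy 2.4.6, scipy 1.17.1, scikit-learn 1.9.0, igraph 0.11.9 and leidenalg 0.10.2 were used.

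Clusters were named by marker lists. A marker was raised at 2-fold over the other cells with at least 5 UMIs. A first cluster with 50% of a list raised was taken as myeloid, lymphoid, stromal or mixed and reclustered; of the rest and the stromal, those with 5-fold the myeloid level of Shisal2b and Rhox5 were the Rhox5-high cells. Monocyte-like, dendritic-like and proliferating clusters needed 50% of their list raised. Other myeloid clusters were macrophages if 3 macrophage markers had a UMI, and were split by whether Cxcl9 and 1 further marker, not named here, were above the level of all myeloid cells; the remainder is called Retnla-high after its leading gene. NK-like, stromal and granulocyte-like clusters needed 3 markers raised, and T-like clusters were those whose best list was T cell, split by Cd8a over Cd4 and by Foxp3. Clusters with a median depth below the library median divided by 3 were named only if a marker was among their 10 leading genes (not for Rhox5-high cells). This naming rule was set after seeing the clusters, and the members and lists were chosen with earlier results of these data known. Named genes are the 10, the 8 pathway lists (87 genes in the file) and, for each of the 10, the 3 genes most correlated over the groups, less any left out of the text; marker and leading genes are named as they define groups. UMIs were summed per group; a group at 0 was given a limit of 3 counts over the group. Interval and ratio steps were tested on simulated data. The 8 alternatives were a 10% mitochondrial limit, doublets kept, all genes allowed as variable genes, lower and higher resolutions, another seed, the mean of each cell's own level, and cells thinned to 1000 UMIs.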

Additional observations from a re-analysis of the deposited data

How the results depend on the processing

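Of 54 values of the 7 main ratios under the 8 alternatives, 43 stayed within the 95% interval of the main value, 11 left it on the same side of 1 and 0 crossed 1. With a 10% mitochondrial limit 69 of 120 levels of a gene in a group lay within their main interval, and no NK-like cluster was named, so its 2 ratios have no value. Under any setting, the levels of a group that was not named have no value and are not among those within. The remainder of macrophage clusters that no other name fitted, the 24 Retnla-high cells in the main grouping, was a wider group there (240 cells) and with doublets kept (69), with Fcgr2b at 572 and 482 CPM against 1184. With doublets kept the Sirpa ratio of macrophage-like to Rhox5-high cells was 63.4. At lower resolution the NK-like cluster held 70 cells, T-like cells numbered 35 and pericyte-like cells numbered 69 against 19, and no Cd8a-high, dendritic-like or granulocyte-like cluster was named. There the ratios of NK-like to T-like cells were 14.7 for Tyrobp and 9.96 for Fcer1g, and 75 levels lay within. As the mean of each cell's own level, the ratios were 26.7 for Tyrobp, 16.2 for Fcer1g and 48.9 for Sirpa, and macrophage-like cells had 3.04 activating UMIs per Fcgr2b UMI. In cells thinned to 1000 UMIs the ratios were, for Mertk (macrophage-like to monocyte-like) 5.23, for Axl (fibroblast-like to Rhox5-high) 1.21, for Cd47 (Rhox5-high to macrophage-like) 1.11 and for Sirpa 49.0; 43 levels lay within, and for 3 of the 10 genes the group with the highest share was the same. Thinning leaves fewer UMIs; otherwise the cause was not tested. The count of genes past 2-fold in the 4 comparisons, recomputed under the 6 regroupings, stayed within 1.5 times its main value wherever both groups were named. The regroupings were planned, but this recount was added after seeing the data. The separate lymphoid, stromal, dendritic-like, granulocyte-like and Retnla-high groups had 19 to 51 cells each, which limits their values. Of the planned results, 2 ratios between macrophage groups are not reported and not in these counts; 1 of them crossed 1 in thinned cells.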

Other observations

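Some clusters stayed unnamed, 789 cells in all, and several held the 10 genes. The largest, 328 cells with a median of 761 UMIs, had the hemoglobin gene Hbb-bs and the immunoglobulin genes Igkc, Ighg2b and Jchain among its leading genes. A shallow myeloid cluster of 144 cells led by Ctsk, Mmp9, Atp6v0d2 and Acp5, genes known from osteoclasts, had 3074 [2905 to 3249.7] UMIs of Fcer1g per 1000000 UMIs (CPM) and 2153 [2012 to 2301] CPM of Tyrobp, and 12.4 [4.03 to 29.0] of Mertk. Another of 149 cells, led by Gm26917, Slfn4 and mitochondrial genes, had 58.3 [35.6 to 90.0] of Mertk and 1588 [1457 to 1727] of Fcer1g. A lymphoid cluster of 60 cells, led by the mast cell proteases Mcpt2, Mcpt1, Cma1 and Mcpt4 together with the B cell gene Cd79a, had 799.9 [639.8 to 988] of Fcer1g, a subunit of the mast cell IgE receptor, and 55.8 [20.5 to 121] of Fcgr3. A cluster of 38 cells led by Ccl21a, Igfbp7 and Plvap, with all 6 endothelial markers raised, had 399 [284 to 546] of Cd47 and 10.2 [0.259 to 57.0] of Axl. The last 4 clusters had medians of 821 to 1888 UMIs per cell. All these clusters were chosen for mention after their values were seen.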
